A study of Mus musculus with 2 samples.

Results

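The zinc finger genes described here are the protein-coding genes of GENCODE release M21 named Zfp followed by a number alone that lie on mouse chromosomes 2, 7, 13 and 17. There were 186 such members among 21938 protein-coding genes, with 25 on chromosome 2, 89 on chromosome 7, 31 on chromosome 13 and 41 on chromosome 17. A member was called clustered when it lay under 100 kb from another member, which held for 137 genes in 28 clusters, and single otherwise, which held for 49. The members were chosen by name and place, and no peak was used to choose them.

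CTCF binding was measured by ChIP-seq, in which DNA fragments held by a protein are pulled down with an antibody and sequenced. The study had 1 group, stomach tissue of newborn mice (postnatal day 0) of strain B6NCrl with no treatment or engineered allele named, and 2 replicates. The labels name the same donor and the same tissue sample for both replicates, so the spread between them may be technical, and no sex was recorded. Control libraries are not analysed here, and since the lists measure binding and not expression, the stomach label could not be set against marker genes. Peaks came from the optimal list, which the authors made from both replicates with the irreproducible discovery rate procedure, a filter that keeps peaks ranked alike in replicates. It held 74293 peaks, of which 74283 lay on chromosomes and were used. Each peak carries a signal, a value of the authors' own peak calling that was compared here within a list alone. The files used give no read numbers, and the depth of sequencing is unknown.

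Most Zfp genes encode proteins with a row of C2H2 zinc fingers, short folds that each hold a zinc ion and together read a DNA sequence. Many of them also carry a KRAB domain, which recruits the corepressor TRIM28 and the histone methyltransferase SETDB1 and is best known for silencing retrotransposons. The genes have multiplied by local duplication and so stand in clusters of close relatives, and their fingers are usually encoded together in the last coding exon. CTCF, itself a protein with many zinc fingers, occupies insulators and holds chromatin loops at their anchors, and its motif has a direction. In human cells the 3' ends of KRAB zinc finger genes are known for TRIM28 and heterochromatin marks, and the last coding exon is therefore described apart.

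In the largest cluster of chromosome 17, 6 motif sites in peaks within 1 kb of a start site resembled each other, and they are shown here because each lay upstream of a different zinc finger gene. The CTCF motif was searched with a matrix of 19 positions, consensus NNNCCACNAGGGGGCNCNN, on both strands within 50 bp of the summit. Each site is written 5' to 3' on the strand of the motif, read from the mm10 genome, with the 19 motif bases in capitals and 5 flanking bases on each side in lower case.
Zfp677, chr17:21383472-21383500, minus strand: tgcttTCTCCACTAGATGGTGGTCttgtc
Zfp54, chr17:21422767-21422795, minus strand: ggcttTCACCACTAGATGGTGGTCttgcc
Zfp51, chr17:21449832-21449860, minus strand: tgatgTTACCACTAGATGGCGGTCtgtca
Zfp52, chr17:21534601-21534629, minus strand: ttcttTCACCACTAGATGGCGGACatgtc
Zfp948, chr17:21566406-21566434, minus strand: tgcttTCACCACTAGATGTCATTTtacta
Zfp983, chr17:21650092-21650120, minus strand: tgcttTCACCACAAGAAGGCAGACttgcc
These 6 sites shared 14 or more of the 19 motif bases with the site of Zfp52, a criterion set after the sequences were seen, and any pair of them shared 13 to 18. Part of this likeness is the CTCF consensus itself: 4.47% of all 51249 motifs in optimal peaks met the same criterion, and 7.89% of those in peaks with at least the lowest signal of the 6. All 6 pointed away from the gene, with the motif on the strand opposite to it and its centre 262 to 924 bp upstream of a transcription start site (TSS).

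The site upstream of Zfp54 had a signal of 388.5 in the optimal list, with 202.4 in replicate 1 and 186.5 in replicate 2. That of Zfp52 had 402.1, with 230.6 and 174.9, and that of Zfp51 had 317.3, with 178.5 and 141.3. The site of Zfp677 had 301.9, with 165.2 and 137.7. These 4 genes were among the 10 members with the strongest peak within 1 kb. Signals were lower at Zfp983, with 225.1 in the optimal list, 110.5 in replicate 1 and 115.7 in replicate 2, and at Zfp948, with 172.3, 97.84 and 71.29. All 6 sites were therefore found in each replicate, and replicate 1 was the higher at all of them except Zfp983. Calls are less certain where close relatives share sequence, which was scored as repeated stretches, the percent of 32-base stretches within 1 kb of a gene's 5' end that occur more than once in mm10. This was 50.6% at Zfp983 and between 0.660% and 8.22% at the other 5 genes. Farther from the start sites, 3 more motif peaks of the cluster met the criterion, with signals of 370.3, 317.2 (in an intron of Zfp948) and 300.9. In all, 9 of the 16 motif peaks in the cluster span or just upstream of Zfp677 did, and they included its 7 strongest. These 9 contain the 6 sites from which the criterion was drawn, that of Zfp52 included. Their share therefore cannot be set against that of all motifs. The likeness was not limited to this cluster, since 4 further peaks within 10 kb of members met the criterion. They were those of Zfp64 at 373.3, Zfp334 at 369.3, Zfp444 at 360.9, and Zfp944 and Zfp758, which share one of 312.6. Of the 129 motif peaks within 10 kb of members, 10 met it, but these include the 6 sites it was drawn from. Near any coding TSS 643 of 18120, or 3.55%, met it, so such sites were not particular to zinc finger genes. Within 1 kb of the cluster's members, 2 more motif sites did not meet the criterion. They were a further peak of Zfp948, with a signal of 99.26 and its motif on the gene's strand, and the peak of Zfp229, with a signal of 136.3.

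The cluster runs from Zfp677 to Zfp994 (chr17:21383748-22225616, 841.9 kb) and holds 15 members. A summit lay within 1 kb of a TSS for 11 of them and within 10 kb for 12. The span held 23 peaks, or 27.5 per Mb against 30.3 over the autosomes, so the cluster was not dense in peaks as a whole. Of these, 15 had the motif, and in 3 it lay on the plus strand, which is the strand of 10 of the 15 genes. Among the members, Zfp53 had a peak of 58.8 at 10 bp upstream with no motif. Further along, Zfp995, Zfp947 and Zfp994 had peaks of 25.7, 42.1 and 56.7 near the TSS, also with no motif, and the strongest peak of Zfp820 had a signal of 58.0 and lay 7028 bp downstream. The remaining members, Zfp760, Zfp942 and Zfp943, had no summit within 10 kb.

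**Figure D1:**
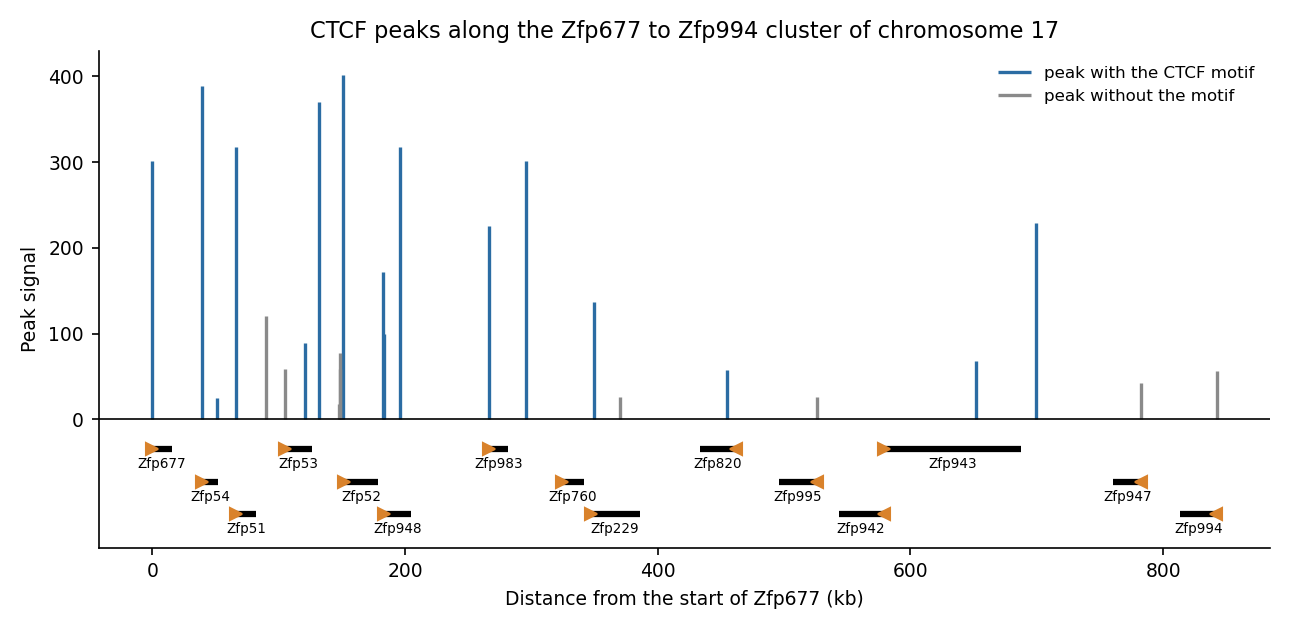
CTCF peaks of the optimal list along the Zfp677 to Zfp994 cluster of chromosome 17. The x axis gives the distance from the start of Zfp677 in kb, the y axis the peak signal, vertical lines the peaks (blue with the CTCF motif, grey without), black bars the members and orange arrowheads their start sites and direction. The tall blue lines at the starts of Zfp677, Zfp54, Zfp51 and Zfp52 have signals of 301.9, 388.5, 317.3 and 402.1, while Zfp760 and Zfp942 have no line near their start.

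Across all members, a summit within 1 kb of a coding TSS was found for 95 of 186, or 51.1% (exact Clopper-Pearson 95% interval 43.7% to 58.5%). The same held for 42.3% of all protein-coding genes and for 38.4% of the other 5574 coding genes on the 4 chromosomes. Zfp genes of the same name pattern on other chromosomes gave 54.7% (98 of 179, 47.2% to 62.2%), within the members' interval. Type 2 vomeronasal receptor genes, another family that multiplied in clusters, gave 0 of 120, which allows up to 3.03%. The 2 families were not matched in sequence. At the starts, vomeronasal genes had a median of 23.8% repeated stretches against 4.16% in members. Their median CpG observed-to-expected ratio was 0.101 against 0.527, and the part of these traits was not tested. Intervals cover counting error only, and because genes are not replicates and neighbours can share a peak, no p-value is given. In the optimal list, zinc finger genes thus had a peak at the start site somewhat more often than coding genes at large. In the conservative list, the stricter of those deposited, the members' share was 44.1% (36.8% to 51.5%) against 40.1% of all coding genes, a difference within the counting error. Of the 117 peaks within 1 kb of a member, 72.6% were also in the conservative list, against 80.7% of peaks within 1 kb of any coding TSS.

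Within 10 kb the members did not stand apart in the share of genes with a summit. A summit was found for 132 of 186, or 71.0% (63.9% to 77.4%), against 69.7% of all protein-coding genes and 66.0% of the other coding genes on the 4 chromosomes. The vomeronasal receptor genes again differed, with 2 of 120, or 1.67% (0.203% to 5.89%). Within 10 kb, 67 of the 186 members had 2 or more summits, a smaller share than the 10295 of all 21938 coding genes. Zfp36 had the most of any member, with 8.

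Clustered and single members, as defined by the 100 kb gap, differed by less than the counting error at both distances. Within 1 kb the shares were 69 of 137 clustered members, or 50.4%, and 26 of 49 single members, or 53.1%. The difference was -2.70 percentage points (clustered minus single, Newcombe 95% interval -18.3 to 13.3). Within 10 kb they were 94 clustered members, or 68.6%, and 38 single members, or 77.6%, a difference of -8.94 points (-21.4 to 6.29). These intervals are wide and leave room for sizeable differences in either direction. The order within 1 kb changed with the CpG observed-to-expected ratio at the start. At 0.6 or more, 48.1% of clustered (34.0% to 62.4%) and 68.0% of single members (46.5% to 85.0%) had a summit. Under 0.6 the shares were 51.8% (40.7% to 62.7%) and 37.5% (18.8% to 59.4%). The 10 kb difference depended on which genes were compared. Without the members of chromosome 2 it was -17.1 points (-28.0 to -0.950), and with neighbours counted among all coding genes named Zfp or Zscan or with 3 or more fingers it was -18.5 points (-29.6 to -2.93), both intervals below 0. Among members with under 20% repeated stretches it was -12.2 points (-23.2 to 2.62). At 20% or more the order was the other way, with 17 of 38 clustered members, or 44.7%, and 2 of 9 single members, or 22.2%. The exact intervals of these 2 shares overlap, and the single members are few.

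**Figure D2:**
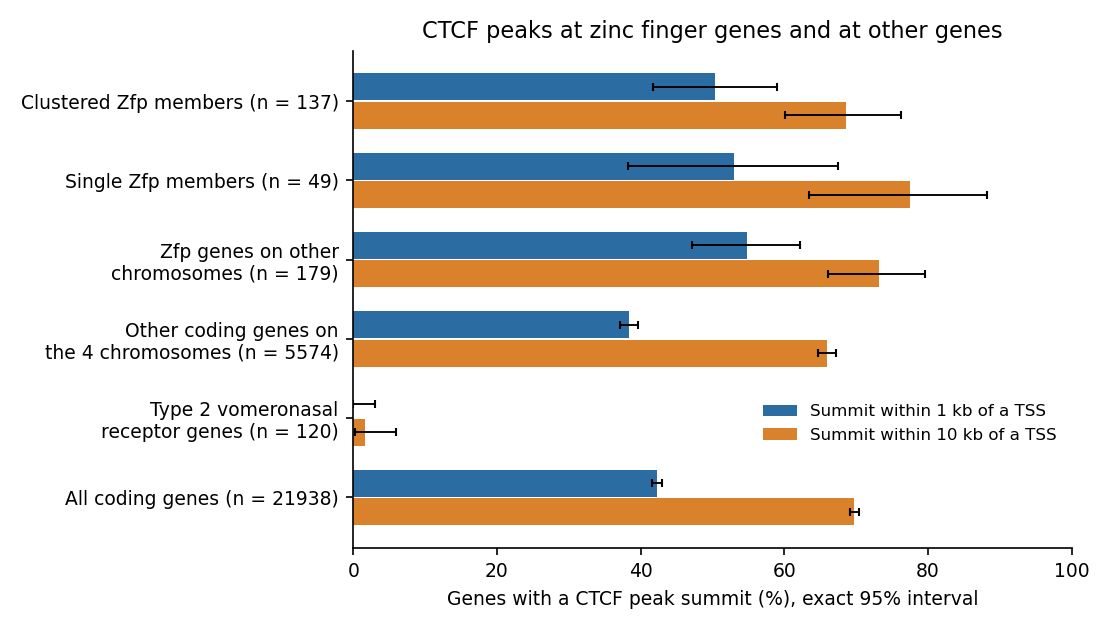
Share of genes with a summit of the optimal list near a coding TSS. The x axis gives the percent of genes, blue bars the summits within 1 kb, orange bars those within 10 kb, and black lines the exact 95% intervals. The bars of clustered and single members overlap in their intervals (50.4% and 53.1% within 1 kb), and those of the type 2 vomeronasal receptor genes are at 0% and 1.67%.

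The split looked different among strong peaks. In the stronger 50% of the optimal list by signal, a summit lay within 1 kb of 34 members, or 18.3% (13% to 24.6%), against 20.5% of all coding genes. Within 10 kb it lay near 75 members, or 40.3% (33.2% to 47.8%), against 50.4% of all coding genes. Within 10 kb, 48 clustered members, or 35.0% (27.1% to 43.7%), and 27 single members, or 55.1% (40.2% to 69.3%), had such a peak. That is a difference of -20.1 points (-35.1 to -3.97), an interval that stays below 0.

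The 245 peaks within 10 kb of a member had a median signal of 58.8, below the 72.4 of peaks within 10 kb of any coding TSS and the 76.6 of the whole list. The median was 56.6 around clustered members and 74.7 around single ones. A motif was found in 129 of the 245, or 52.7% (46.2% to 59.0%), against 60.6% near any coding TSS and 69.0% over all optimal peaks. At windows 1 kb away from the same summits the share was 2.04%. Within 1 kb of a member the motif was less frequent, in 39 of 117 peaks or 33.3% (24.9% to 42.6%), as it was within 1 kb of coding genes in general, at 39.9%. Few peaks were shared between members: 14 of the 245 lay within 10 kb of 2 members, and 12 members had shared peaks alone. For 206 of the 245 the nearest coding TSS was that of a member, and the others lay closer to another gene.

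Where the summit lay set 2 kinds of peaks apart. From 100 bp upstream to 100 bp downstream of a TSS there were 37 pairs of a peak and a member, with a median signal of 37.0. Only 5 of them, or 13.5% (4.54% to 28.8%), had the motif, against 32.6% at the same distance from all coding genes. From 1000 to 500 bp upstream there were 13 pairs with a median signal of 225.1, and 11 of them, or 84.6% (54.5% to 98.1%), had the motif, against a median of 70.6 and 54.2% at all coding genes. Of these 13, 4 belonged to the chromosome 17 cluster described above, and without it 7 of 9 had the motif at a median of 151.9. Peaks right at the start were thus many, weak and mostly without the motif, while the few in the upstream stretch were strong. This bin holds few genes and its range was noticed in the data.

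**Figure D3:**
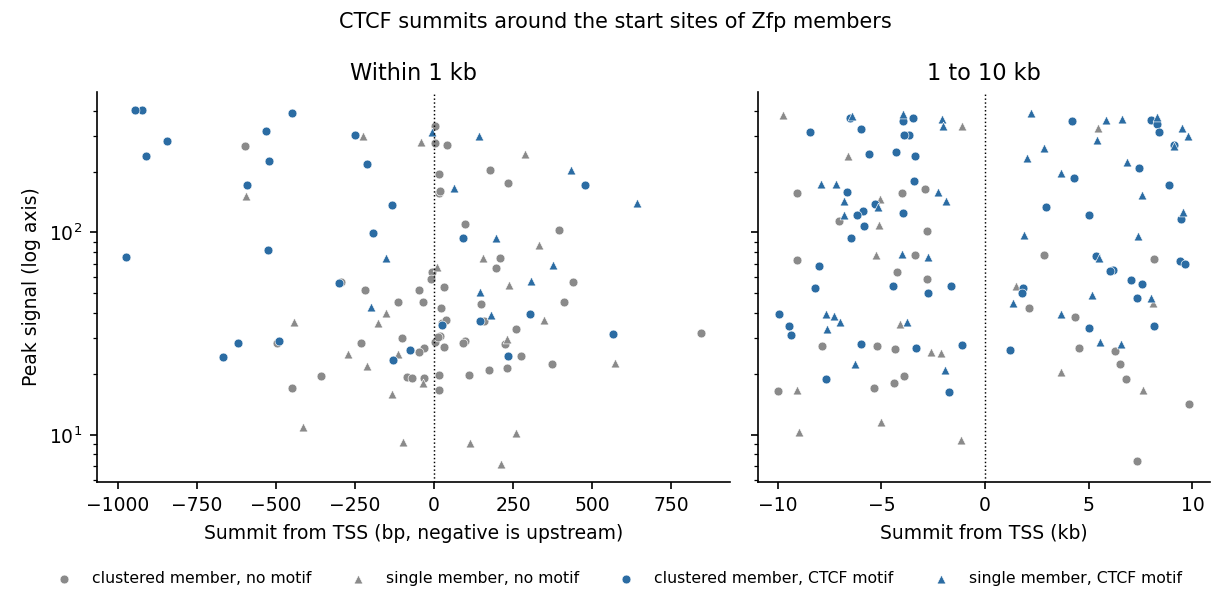
Summits of the optimal list around the nearest coding start site of each member, within 1 kb on the left and at 1 to 10 kb on the right. The x axes give the distance of the summit from the TSS (negative is upstream), the y axis gives the peak signal on a log scale, circles are clustered and triangles single members, and blue marks peaks with the CTCF motif. Between 100 bp upstream and 100 bp downstream 5 of 37 points are blue, and between 1000 and 500 bp upstream 11 of 13 are.

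Taking the strongest summit within 1 kb for each of the 95 members, 31 had the motif, with a median signal of 136.3, and 64 did not, with a median of 38.4. By annotation of coding genes, 27 of these summits lay in an untranslated region, 27 in an intron, 8 in a coding exon and 33 between genes. A motif match in the sequence itself, with or without a peak, was about as common within 1 kb of members' 5' ends as elsewhere: 68 of 186 members, or 36.6%, had a match against 37.6% of all coding genes. Where a match was present, 42 of 68 members, or 61.8%, had a peak within 1 kb (63.8% of all such coding genes). Without a match, 53 of 118 members, or 44.9%, still had one, against 29.3% of all such genes. The members' share at 1 kb thus exceeded that of all coding genes among genes with no motif match. Of the 39 motifs in peaks within 1 kb, 14 pointed along the gene, or 35.9% (21.2% to 52.8%), with 8 of 27 at clustered and 6 of 12 at single members.

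The strongest peak within 1 kb of any member lay outside the chromosome 17 cluster and was that of Zfp663 on chromosome 2. Its summit lay 944 bp upstream of a start site and in an intron of the gene, with a signal of 404.1 in the optimal list, 231.8 in replicate 1 and 172.8 in replicate 2. Its motif and that of Zfp52 shared an unbroken run of 12 bases, CCACTAGATGGC. Only 13 of their motif bases were equal, so the Zfp663 site did not meet the criterion of 14 or more used above.
Zfp663, chr2:165361067-165361095, minus strand: ggatgAATCCACTAGATGGCAGCActaca
Zfp341, chr2:154613278-154613306, minus strand: ggtcgGGGCCGCCAGGGGGCGCCCaggag
Zfp341, whose human counterpart drives transcription of STAT3, is shown because it is the other chromosome 2 gene among the strongest and differs in the core. Its peak lay 8 bp upstream of the TSS at 311.9, with 198.8 and 112.3 in replicates 1 and 2.

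On chromosome 7, Zfp619, Zfp788 and Zfp74 were among the 10 strongest. Zfp619, which had the most fingers of any member (33), had a peak of 301.1 at 141 bp downstream, with 203.6 in replicate 1 and 98.97 in replicate 2. Zfp74 had one of 282.0 at 845 bp upstream, with 150.6 and 135.0. Strong peaks without a recognised motif also occurred here. Zfp764 had a signal of 335.6 at 2 bp downstream of the TSS (206.5 and 130.1 in the replicates) and its neighbour Zfp747 had 277.3 at 3 bp downstream (161.7 and 115.8). Repeated stretches made up 27.0% of the start of Zfp764 and 49.5% of that of Zfp747, so both calls are less certain. Whether the 2 genes share these stretches with each other was not examined. Zfp788 had 298.7 at 226 bp upstream (173.2 and 126.2), likewise with no motif. Of the 10 strongest, 7 were clustered and 3 single, and 8 had the motif.

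Some motifs near members were copies of one another. The core AGGCCAGAAGAGGGCATCA, the most frequent motif sequence near members, is shown because 4 peaks near 6 members carried it without a difference. Of these, 3 are printed.
Zfp566 and Zfp260, chr7:30091430-30091458, minus strand: tctgtAGGCCAGAAGAGGGCATCAtatcc
Zfp27 and Zfp383, chr7:29898549-29898577, minus strand: catggAGGCCAGAAGAGGGCATCAgatcc
Zfp689, chr7:127456814-127456842, plus strand: tcgagAGGCCAGAAGAGGGCATCAgatat
Capitals again mark the 19 motif bases. The same core had a signal of 238.6 between Zfp566 and Zfp260 (127.9 in replicate 1, 108.1 in replicate 2), 39.3 in an intron of Zfp27 (19.4 and 17.2) and 18.8 near Zfp689. Equal motif bases thus went with signals that differed widely. Sequences with 16 or more of the 19 bases in common with this core made up 27 of 129 motifs near members, or 20.9% (14.3% to 28.97%), against 18.1% near any coding TSS, so they were not particular to zinc finger genes. In mouse, copies of the B2 retrotransposon are known to carry CTCF motifs, but repeat families were not annotated here. Motifs wholly within repeat-masked sequence, of any family, made up 41 of 129, or 31.8% (23.9% to 40.6%), against 24.9% near any coding TSS. Their median signal was 58.0, against 172.8 for unmasked motifs.

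The last coding exon, where the fingers are encoded, seldom held a summit, in members as in coding genes at large. The fingers, counted as C2H2 patterns in the translated M21 coding sequences, numbered 11 in the median member and 3 or more in 177 members. In 159 of the 183 members with any finger, all of them lay in the last coding exon. A summit in that exon was found for 4 of 186 members, or 2.15% (0.589% to 5.41%), against 2.81% of all coding genes. Of the 4, 3 were clustered and 1 single, a difference of 0.149 points (-8.62 to 4.53).

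Relative to the length of these exons, summits were few. The median last coding exon had 1398 bp in members and 179 bp over all coding genes. Per Mb of last coding exon there were 14.97 peaks in members (4.08 to 38.3) and 70.5 over all coding genes (65.2 to 76.1). Zfp genes on other chromosomes had 23.99 per Mb (7.79 to 56.0). Of the 138 members whose last coding exon exceeded 1000 bp, 0 had a summit there, which allows up to 2.64%, against 195 of 1839 coding genes, or 10.6% (9.23% to 12.1%). For exons of 500 to 1000 bp the order was the other way, with 4 of 30 members, or 13.3% (3.76% to 30.7%), against 4.24% of all coding genes. The exons also held fewer motif matches, at 94.7 per Mb in members against 236.5 over all coding genes. Of these matches, 3 of 24 in members, or 12.5% (2.66% to 32.4%), lay at a peak, against 17.1% over all genes. Repeated stretches within the exon had a median of 2.17% in members, 6.03% in clustered members and 0% over all coding genes. The part of repeated sequence in the few summits was not tested.

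The 4 exceptions all lay on chromosome 7, in exons of 500 to 1000 bp, and 3 had a motif. Their sites are shown since they are the only motif sites in a peak within members' last coding exons.
Zfp36, chr7:28377863-28377891, plus strand: gtggaAGATCCCCAGGGGGCGGTGgggag
Zfp444, chr7:6189709-6189737, minus strand: ctcgcGCGCAGGCAGGGGGCGCAGtgcag
Zfp524, chr7:5017569-5017597, plus strand: gaggcCGACCTCCAGGGGGAGCCAccacc
None of these genes is a typical many-fingered member. Zfp36 encodes tristetraprolin, which binds AU-rich mRNA and promotes its decay through CCCH fingers, and it had 0 C2H2 and 2 CCCH patterns. Zfp444 and Zfp524 had 4 fingers each, and Zfp575, whose peak had no motif, had 6. The signals were modest, at 65.1 for Zfp444 (48.9 in replicate 1, 17.5 in replicate 2), 50.4 for Zfp524 (27.1 and 20.7), 44.7 for Zfp36 (23.7 and 19.6) and 42.4 for Zfp575 (25.7 and 15.02).

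Peak density varied widely between clusters. Over the 28 clusters there were 203 peaks, or 38.9 per Mb, against 31.8 over the 4 chromosomes. Clusters of 5 or more members had 46.9 per Mb, those of 3 or 4 had 16.6 and those of 2 had 24.8. The densest were Zfp213 to Zfp13 on chromosome 17, with 140.4 per Mb, and Zfp628 to Zfp580 on chromosome 7, with 130.0 per Mb. Spans can include coding genes that are not members, and peaks in those genes were counted too. There were 0 such genes in Zfp213 to Zfp13 and 8 in Zfp628 to Zfp580. At the other end, 3 clusters of 2 genes (Zfp960 to Zfp97, Zfp442 to Zfp345 and Zfp968 to Zfp965) had no peak in their span. In the same order, their spans were 82.7, 77.95 and 109.7 kb. Repeated stretches at their starts had medians of 75.2%, 62.9% and 100%, and the part of this was not tested. Zfp345 had a peak of 29.2 at 489 bp upstream, just outside the span. Between neighbouring members, 50 of 106 gaps, or 47.2%, held a peak. These were 10 of 18 between convergent genes, 10 of 20 between divergent genes and 30 of 68 between genes of the same direction. Median gaps were 22.4, 20.97 and 15.5 kb in the same order, so the arrangements were not matched for length. No share was counted for gaps between other coding genes.

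**Figure D4:**
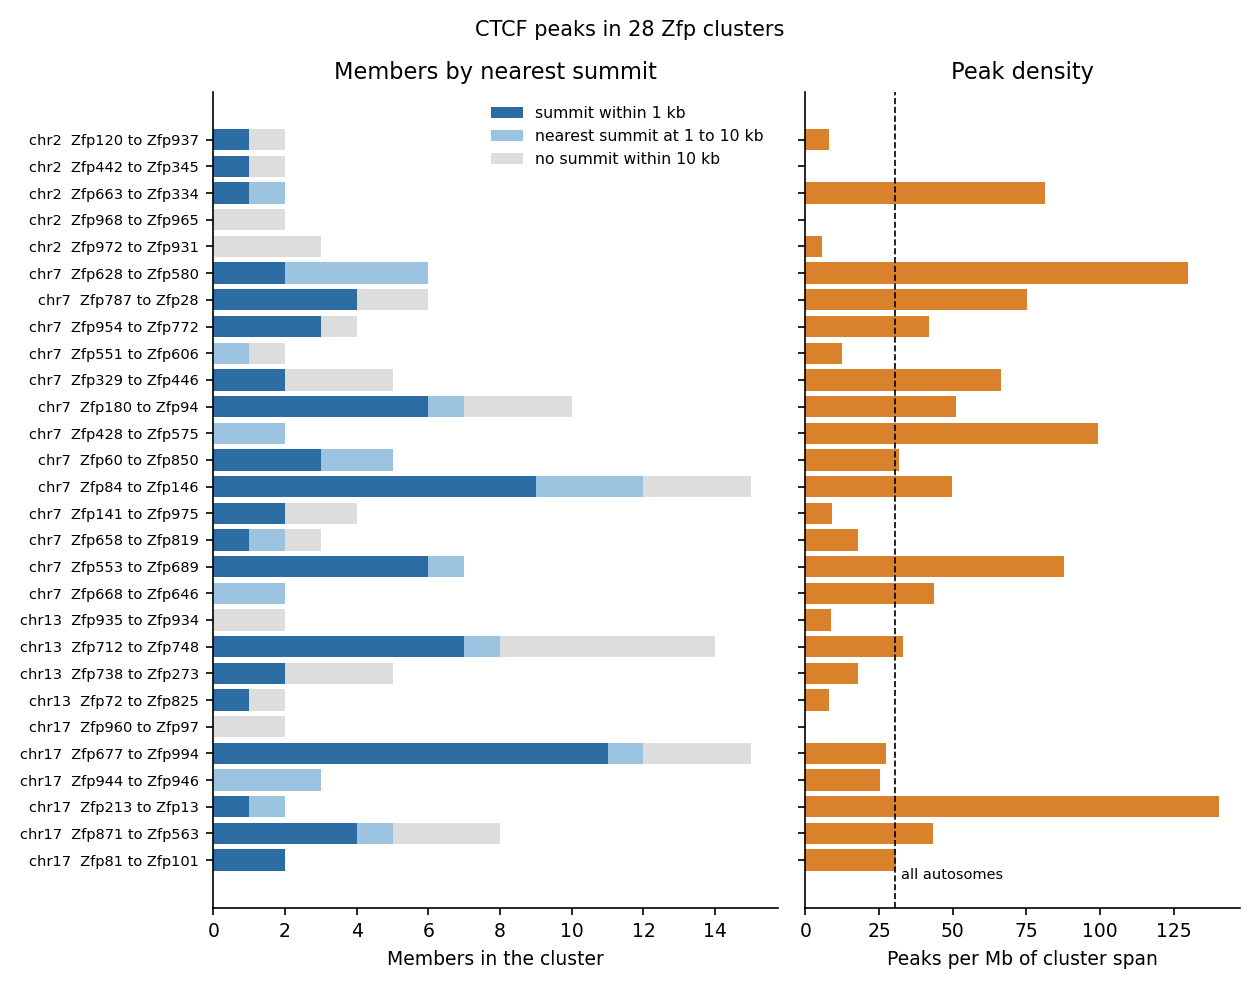
The 28 clusters of zinc finger members. On the left, the x axis counts the members of each cluster with a summit within 1 kb of a TSS (dark blue), a nearest summit at 1 to 10 kb (light blue) or none within 10 kb (grey); on the right, the x axis gives peaks per Mb of cluster span, with the autosomes' 30.3 as a dashed line. Density ranges from 0 in 3 clusters to 140.4 in Zfp213 to Zfp13, and 15 of the 28 bars pass the line.

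Large clusters held genes with and without a summit of the optimal list side by side. In the 15 members from Zfp84 to Zfp146 on chromosome 7, 12 had a summit within 10 kb, the strongest being Zfp74 and Zfp260 at 282.0 and 238.6, while Zfp14, Zfp30 and Zfp790 had none. In the 14 members from Zfp712 to Zfp748 on chromosome 13, 8 had one, led by Zfp595 at 269.4 and Zfp953 at 103.0, both without a motif, while Zfp429, Zfp455 and Zfp456 were among those with none. All 7 members from Zfp553 to Zfp689 had one, led by Zfp553 at 354.6 (3975 bp upstream, in a Sept1 intron) and Zfp764 at 335.6. All 6 from Zfp628 to Zfp580 did too, with Zfp580 at 344.3 and Zfp628 at 179.0. The Zfp580 peak lay 8308 bp downstream of the TSS, in a coding exon of Ccdc106. Only 2 of these 6 members had a summit within 1 kb.

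In the other large clusters the leading genes had peaks from 82.2 to 360.9. From Zfp787 to Zfp28, Zfp444 had 360.9 at 8009 bp downstream and Zfp78 had 304.7 at 3896 bp upstream, with none for Zfp583 and Zfp787. From Zfp871 to Zfp563, Zfp870 had 175.6 and Zfp952 had 75.6, with none for Zfp472, Zfp799 and Zfp811. From Zfp60 to Zfp850 all 5 members had a summit, with Zfp60 at 243.7 and Zfp626 at 108.0. The remaining large clusters were led by Zfp61 at 195.5 and Zfp114 at 36.4 from Zfp180 to Zfp94, where Zfp112, Zfp235 and Zfp93 had none, by Zfp128 at 158.3 and Zfp110 at 66.7 from Zfp329 to Zfp446, where Zfp324, Zfp329 and Zfp446 had none, and by Zfp65 at 82.2 and Zfp738 at 30.4 from Zfp738 to Zfp273, where Zfp273, Zfp493 and Zfp85 had none.

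By chromosome, a summit within 10 kb was found for 71 of 89 members on chromosome 7 (79.8%), 32 of 41 on chromosome 17 (78.0%), 18 of 31 on chromosome 13 (58.1%) and 11 of 25 on chromosome 2 (44.0%). Sequence that recurs in the genome was common at some chromosome 2 starts, and short reads from such sequence can be hard to place. All 10 chromosome 2 members with 70% or more repeated stretches lacked a peak, among them Zfp968, Zfp965, Zfp969, Zfp966, Zfp967 and Zfp973 at 100%, while 11 of the other 15 on that chromosome had one. Over the 4 chromosomes, 14 members reached 70% and 0 had a peak, which allows up to 23.2%.

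Among members under 20% repeated stretches, 113 of 139, or 81.3% (73.8% to 87.4%), had a summit within 10 kb, against 76.3% of all such coding genes. At 20% or more the shares were 19 of 47, or 40.4% (26.4% to 55.7%), against 23.3%. Of the 54 members with no summit, 28 were at 20% or more and 26 under it, so repeated sequence was present at some of these starts and not at others. Of the 54, 25 had weak summits in the relaxed lists of both replicates. The part of repeated sequence in the missing peaks was not tested. CpG content moved with the shares too. With a CpG observed-to-expected ratio of 0.6 or more within 500 bp of the TSS, 85.7% of members and 86.9% of all coding genes had a summit within 10 kb. Under 0.6, the members' share within 1 kb was 48.6% (38.9% to 58.4%) against 25.03% of all coding genes, while at 0.6 or more it was 54.5% (42.8% to 65.9%) against 62.6%. The members' share thus exceeded that of all genes in the CpG-poor group alone, but that group was not matched, with a median ratio of 0.402 in members and 0.236 over all coding genes.

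The 5 single members with the strongest peaks within 10 kb had them more than 2 kb from the start site. Zfp523, a relative of the transcription factor gene Zfp143, had a peak of 387.2 at 2235 bp downstream in its own coding sequence (222.2 in replicate 1, 165.2 in replicate 2). Zfp541, which acts in meiosis, had 382.3 at 9747 bp upstream (208.9 and 175.8), and Zfp36 had 375.3 at 6423 bp upstream (215.0 and 162.4), within an untranslated region of Med29, a Mediator subunit gene. Zfp64 had 6 summits within 10 kb, the strongest 373.3 at 8271 bp downstream (219.3 and 154.3) and another of 279.9 at 43 bp upstream. No summit was found within 10 kb of the single genes Zfp511, Zfp770, Zfp808, Zfp831 and Zfp936.

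Among members of known role, Zfp57, which keeps imprinted regions methylated, had 1 peak within 10 kb of its TSS, 3972 bp upstream, with a signal of 385.4 (216.4 in replicate 1, 169.6 in replicate 2). Zfp568, which silences a placental transcript of Igf2, had 1 peak within 10 kb, 213 bp upstream at 218.1 (144.4 and 77.0), and a stronger one of 304.6 farther inside the gene (167.9 and 138.1). Zfp335, needed for neural progenitors, had 5 summits, the strongest 233.8 at 1997 bp downstream (138.9 and 93.1). Zfp217, a counterpart of a human breast cancer oncogene, had 77.4 at 5282 bp upstream (39.4 and 35.3). All of these were found in both replicates.

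A KRAB pattern was matched in the translated sequence of 101 members, a search that misses some KRAB proteins, ZFP568 among them. A summit within 1 kb was found for 46 of the 101 and for 49 of the 85 others, and within 10 kb for 64 and 68. Of the 21 other genes in the KRAB silencing pathway and its neighbours, 12 had a summit within 1 kb and 20 within 10 kb, beside the 42.3% and 69.7% of all coding genes. The strongest belonged to Dnmt3l, a cofactor of DNA methylation (363.7), Zfp809, which silences murine leukaemia viruses (342.4), and Dnmt3a, a DNA methyltransferase (304.4). Trim28 had 167.8 and Setdb1 had 295.7, and the exception was Fam208a, a subunit of the HUSH silencing complex.

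Replicates gave the members' peaks much as they gave others. Of the 245 peaks within 10 kb of a member, 190, or 77.6% (71.8% to 82.6%), had a summit within 100 bp among the strongest peaks of each replicate, taken in the number of the optimal list, against 80.7% near any coding TSS. For 127 of the 132 members with a summit, the strongest peak was present in both relaxed lists, the long lists of 300000 peaks deposited for each replicate. The exceptions were weak peaks: Zfp120, at 23.5 in the optimal list, had 22.6 in replicate 1 and none in replicate 2; Zfp563, at 24.5, had none and 13.03; and Zfp101, at 19.3, had 14.2 and none. Zfp131 had none in replicate 1 and Zfp629 none in either. Replicate 1 had the higher signal in 115 of the 127, as in 88.5% of all optimal peaks, and the lists are not scaled to each other.

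**Figure D5:**
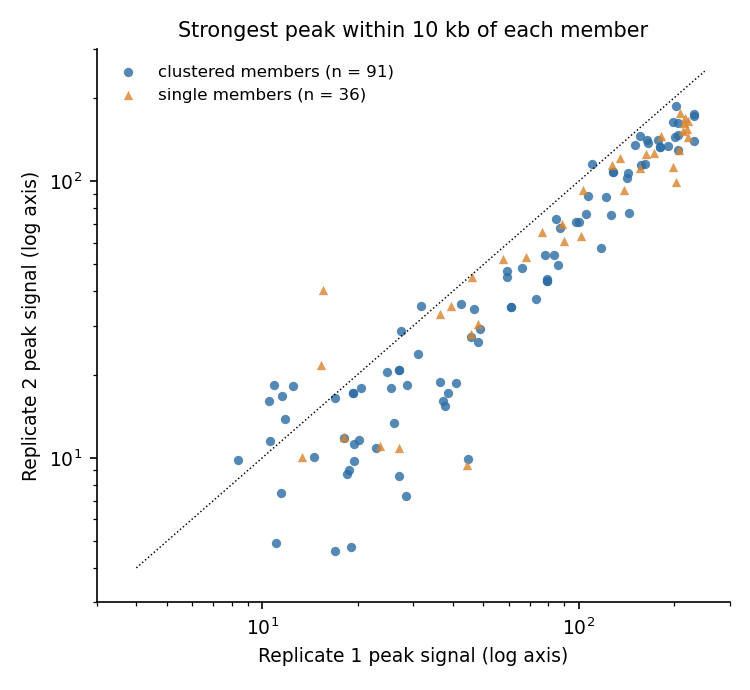
Signal of each member's strongest peak within 10 kb in the relaxed lists of replicate 1 (x axis) and replicate 2 (y axis), both on log scales. Circles are clustered and triangles single members, 127 in all, and the dotted line marks equal values. Strong peaks lie close together just under the line (231.8 and 172.8 for Zfp663), and the points scatter more at low signals.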

How the data were processed

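CTCF ChIP-seq peak lists of newborn mouse stomach (1 group, 2 replicates) were used as deposited, in mm10 coordinates. Per the deposited descriptions, relaxed lists were made for each replicate and for both, and the optimal and conservative lists follow from the irreproducible discovery rate procedure. For the aligner, the peak caller and the threshold, the sources used here name nothing. The signal per peak is the value the authors deposited, and the summit offset is in bp from the peak start, per the deposited lists.

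Members and gene lists were chosen with earlier results of these data known. A summit was counted when it lay within 1 kb or 10 kb of the start of any protein-coding transcript (GENCODE M21), or in the coding part of the exon with the stop codon. The 19-position motif matrix came from chromosome 1, which holds no member (its 1000 strongest optimal peaks, 984 aligned). A motif was called at scores of 11.74 or more, as met by 1% of 100000 random windows; outside chromosome 1 this held for 69.0% of peaks and 1.79% of windows 1 kb away. Counting and motif search were tested on simulated data.

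Genes were named by rule: the 10 strongest within 1 kb, every summit in a last coding exon, the 2 strongest and up to 3 members with no summit in each cluster of 5 or more, the 5 strongest and up to 5 single members with none, genes of known role, and the 3 with the most different replicate ranks. Others (Zfp747, the Zfp677 to Zfp994 neighbours, those sharing a motif core or a site like that of Zfp52, the most repeated starts, Zfp131 and Zfp629) were named after their values were seen. No test across genes was run, and no comparison of conditions was possible. Alternatives covered the peak list, each replicate alone, distances, start sites, cluster gaps, the exon's extent and motif settings. Limiting members to under 20% repeated stretches and leaving out chromosome 2 were chosen after seeing the data. Software was matplotlib 3.10.9, numba 0.67.0, scipy 1.17.1, pandas 2.3.3 and numpy 2.4.6 under Python 3.11.15.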

Additional observations from a re-analysis of the deposited data

Results flagged for a closer look

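Of the 54 members with no summit of the optimal list within 10 kb, 25, or 46.3% (exact 95% interval 32.6% to 60.4%), had summits there in the relaxed lists of both replicates, which no comparison above uses. Over all coding genes with no optimal summit this held for 1834 of 6640, or 27.6%, and these relaxed lists have no control to set them against. All 25 were clustered, out of 43 clustered members with no optimal summit (58.1%, 42.1% to 73.0%), while 0 of the 11 single ones had any, which allows up to 28.5%. The single ones had a median of 73.5% repeated stretches at the start against 12.2% for the clustered ones, and the part of this in the contrast was not tested. Within 1 kb such summits were found for 19 members, or 35.2%, against 14.2% of all such coding genes. They were weak: the strongest of each member had a median signal of 6.38 in replicate 1 and at most 19.98, at Zfp273, where the optimal-sized list of that replicate ends at 12.66. A motif was found at 1 of the 25, Zfp583.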

How the results depend on the processing

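Of 75 values recomputed, 52 stayed within the 95% interval of the reported value, 16 moved outside it and 7 changed sign. In the stronger 50% of the optimal peaks, the members' shares were 18.3% within 1 kb, 40.3% within 10 kb and 0% in the last coding exon, with the motif in 71.8% of peaks, both replicates in 100% and a median signal of 203.1. With the conservative list, both replicates held 86.9% of peaks, and 75 of the 95 members at 1 kb and 119 of the 132 at 10 kb kept a summit. Within 5 kb the share was 61.3% and within 20 kb 80.6%. Counting the whole last exon with its untranslated part gave 6.99% and a clustered minus single difference of -4.37 points. The motif share was 19.6% at a threshold that 0.1% of random windows reach and 40% within 100 bp of the summit. Among members under 20% repeated stretches, added after seeing the data, the shares were 59.0% within 1 kb and 81.3% within 10 kb. The small differences between clustered and single members changed sign: with gaps under 50 kb to 4.01 points within 1 kb and -1.36 in the last coding exon, with gaps under 200 kb to -0.298 there, and with neighbours among all coding genes named Zfp or Zscan or with 3 or more fingers to -0.370. Within 10 kb the difference stayed below 0 in every alternative run for it, from -20.1 to -1.34 points. Members at 20% or more repeated stretches, not among these alternatives, had the other order within 10 kb, at 44.7% of clustered and 22.2% of single members. With each replicate alone, the differences ranged from -1.24 to 2.55 points within 1 kb and from -1.89 to 0.879 in the last coding exon, and the median signal from 26.3 to 38.6, on lists not scaled alike. The cause of these changes was not tested beyond what a shorter list or a wider window implies. No paired analysis was possible because there is 1 group and the result comes from no test. Depth is unknown, so a missing peak does not show missing binding.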
